A study of Mus musculus with 12 samples.

Results

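The peaks of ZFP57 and of KAP1 were compared in wild-type E14 cells, a mouse embryonic stem cell line of strain 129P2/OlaHsd grown without feeder cells in serum and leukemia inhibitory factor. All peaks of these libraries were taken, 602 for ZFP57 and 1334 for KAP1 after peaks of a list that overlapped or touched were joined, so 1936 of the 13716 peaks in the 4 lists at hand. Both came from chromatin immunoprecipitation sequencing, in which an antibody recovers the DNA fragments that a protein is fixed to. The other lists, ZFP57 and KAP1 in wild-type A3 cells (strain 129X1/SvJ), were used here only to see whether an E14 peak was called again. Each protein had 1 library in each line, so no value below has a replicate error and no difference between the proteins or lines was tested. The intervals given are 95% exact Clopper-Pearson intervals for shares and exact order-statistic intervals for medians. They cover counting error only, and peaks of 1 library are not replicates.

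ZFP57 is a KRAB zinc finger protein, a class in which the zinc fingers read a DNA sequence and the KRAB domain recruits the corepressor KAP1, also called TRIM28. KAP1 does not itself read a DNA sequence and is known to bring in the histone methyltransferase SETDB1 and heterochromatin protein 1, which lay down and bind H3K9me3. In embryonic stem cells ZFP57 is known for holding DNA methylation at the methylated copy of imprinting control regions, and KAP1 for silencing endogenous retroviruses through many other KRAB zinc finger proteins. A peak of ZFP57 and a peak of KAP1 at one place can arise from either protein's own complexes in different cells of the culture, since each library averages over many cells.

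KAP1 was called at 160 of the 602 ZFP57 peaks, with an overlap of at least 1 bp, which was 26.6% of the ZFP57 list (23.1 to 30.3%). ZFP57 was called at 160 of the 1334 KAP1 peaks, or 12.0% of that list (10.3 to 13.9%). The overlapping peaks formed 161 pairs at 159 separate loci, and 157 of these loci held a single peak of each protein. The exceptions were a ZFP57 peak of 1800 bp on chromosome 5 at 130162651 to 130164450, which met KAP1 peaks of 750 bp and 900 bp, and a KAP1 peak of 1350 bp on chromosome 10 at 79201801 to 79203150, which met ZFP57 peaks of 750 bp and 300 bp. Positions are in the mouse build mm9, which the submitters' processing notes name, and are given without a gene because annotation of that build was not used here.

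Measured in DNA instead of peaks, the proteins had 118 kb in common, which was 35.2% of the sequence under ZFP57 peaks and 17.7% of that under KAP1 peaks. Very wide regions carried much of this. In 3 pairs both peaks were wider than 1500 bp, and these alone held 31.1 kb, or 26.2% of the common sequence. The median overlap of a pair was 600 bp, and only 3 pairs overlapped by 150 bp, the least possible because the authors' peaks lie on a grid of windows of 150 bp.

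Where the peaks met, they mostly covered the same windows. In 82 of the 161 pairs the ZFP57 and KAP1 peaks had identical boundaries (50.9%, 42.9 to 58.9%). In 40 pairs the ZFP57 peak lay inside a wider KAP1 peak (24.8%), in 30 the KAP1 peak lay inside a wider ZFP57 peak (18.6%), and 9 pairs were staggered (5.59%). Both boundaries were within 1 window of each other in 144 pairs (89.4%, 83.6 to 93.7%), and at least 1 boundary was the same in 142. The starts coincided in 117 pairs and the ends in 107.

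The midpoints of the peaks coincided in 88 pairs (54.7%, 46.6 to 62.5%), and lay within 150 bp of each other in 150 pairs (93.2%, 88.1 to 96.5%). The KAP1 midpoint was at the higher coordinate in 44 pairs and at the lower coordinate in 29 pairs. Coordinates run along the chromosome and not along the direction of any gene, so neither side is upstream. An offset under 75 bp could not be seen on this grid.

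**Figure D1:**
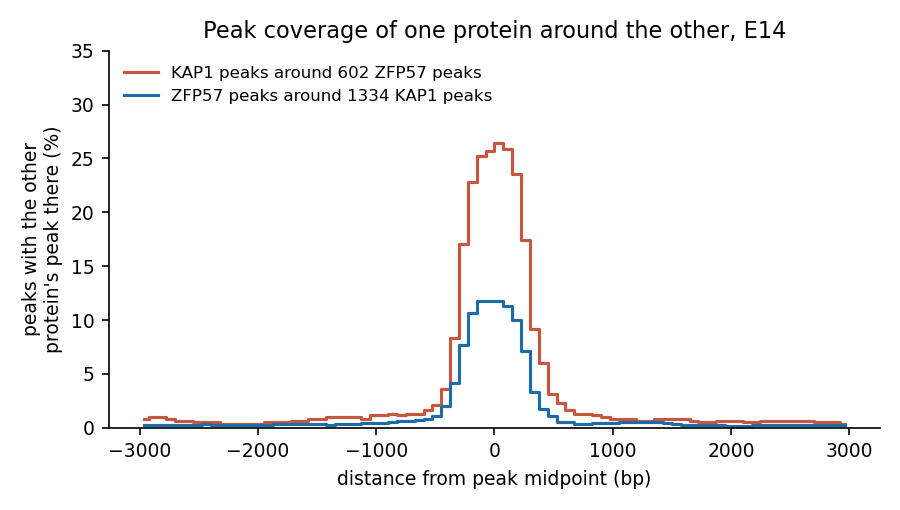
Share of peaks (y axis, %) whose surroundings were covered by a peak of the other protein at each distance from the peak midpoint (x axis, bp), for KAP1 around the 602 ZFP57 peaks and ZFP57 around the 1334 KAP1 peaks. Both profiles have a single maximum at the midpoint, of 26.4% and 11.8%, are 600 bp wide at the level midway to the maximum, and stay at or below 0.997% and 0.375% at each position from 1500 bp to 3 kb.

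The coverage of one protein around the other was narrow. KAP1 peaks covered the surroundings of ZFP57 midpoints most often at the midpoint, at 159 of 602 peaks (26.4%), and the profile was 600 bp wide at the level midway to its maximum. The overlapping peaks of either protein had a median width of 600 bp themselves. The profile width is thus no separate measure of how close the proteins lay. At any single position between 1500 bp and 3 kb to either side, KAP1 covered at most 6 of the 602 ZFP57 peaks' surroundings (0.997%). Counted by midpoints, KAP1 peaks lay within 150 bp of a ZFP57 midpoint at a density of 831 per 1000 ZFP57 peaks and kb. That density was 10.7 between 0.15 and 1 kb, 3.05 between 1 and 10 kb, 1.04 between 10 and 100 kb and 0.746 between 100 kb and 1 Mb. The step from the first to the second distance class was the steepest, and from 10 kb outward the density changed little.

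The paired peaks were also of like width. The widths were equal in 86 of 161 pairs (53.4%, 45.4 to 61.3%), KAP1 was wider in 43 (26.7%, 20.1 to 34.2%) and ZFP57 was wider in 32 (19.9%). They differed by at most 150 bp, or 1 window, in 142 pairs (88.2%). Spearman's rho of the widths was 0.666 over the 161 pairs and 0.621 over the 154 pairs in which neither peak exceeded 1500 bp. Both peaks of a pair share the genome position, the grid and the cell line, so this is a description of the pairs. The most frequent combination was 600 bp for both proteins, in 36 pairs, followed by 450 bp for both, in 24.

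**Figure D2:**
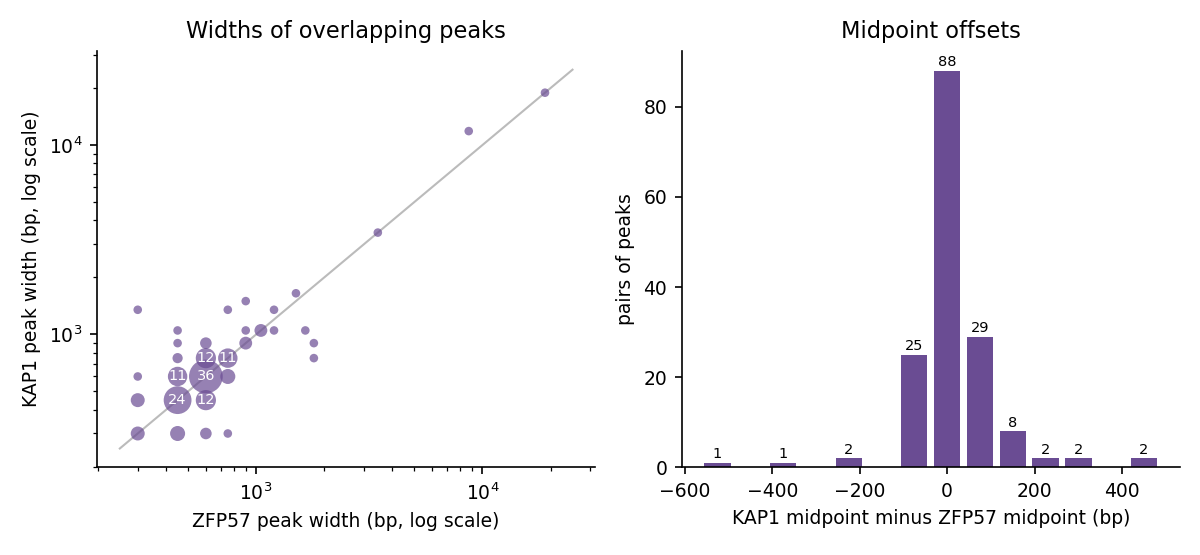
Left, width of the KAP1 peak (y axis, bp, log scale) against width of the ZFP57 peak (x axis, bp, log scale) for the 161 overlapping pairs, with circle area growing with the number of pairs (printed from 11 upward) and a line of equal width. Right, number of pairs (y axis) at each midpoint offset (x axis, KAP1 minus ZFP57 midpoint, bp), without 1 pair at 1575 bp: 88 pairs are at 0 bp.

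Which protein had the wider peak differed between widths of the ZFP57 peak, without a single order. Of the 12 pairs with a ZFP57 peak of 300 bp, the narrowest width in the list, 7 had a wider KAP1 peak, 5 had an equal one and none a narrower one, which the minimum width of 300 bp does not allow. At 450 bp KAP1 was wider in 15 pairs and narrower in 6 of 45, at 600 bp it was wider in 15 and narrower in 15 of 66, and at 750 bp it was wider in 1 and narrower in 7 of 19. Above 750 bp it was wider in 5 and narrower in 4 of 19. Identical boundaries made up 33.3% of the pairs at 300 bp, 53.3% at 450 bp, 51.5% at 600 bp, 57.9% at 750 bp and 47.4% above 750 bp, shares whose intervals overlapped.

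ZFP57 peaks that carried KAP1 were the wider ones of the list. Their median width was 600 bp (n = 160, interval 600 to 600 bp) against 300 bp for the 442 without KAP1 (300 to 300 bp). Only 12 of the 160 had the minimum width of 300 bp (7.50%), against 244 of the 442 (55.2%). The same held from the side of KAP1, with a median of 600 bp for the 160 peaks with ZFP57 and 450 bp for the 1174 without it. The peak lists carry no height, so width was the only measure of a peak's size.

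The share of ZFP57 peaks with KAP1 was higher at each step of width up to 750 bp. It was 4.69% of the 256 peaks of 300 bp (2.45 to 8.04%), 26.3% of the 171 of 450 bp (19.9 to 33.6%) and 58.9% of the 112 of 600 bp (49.2 to 68.1%). At 750 bp it was 67.9% of 28 peaks, and above that 51.4% of 35 peaks (34.0 to 68.6%). The intervals of the first 3 widths did not overlap, and those of the last 3 did. A wider peak offers more sequence to overlap, and the part of this in the shares was not tested.

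KAP1 peaks followed the same order at lower levels. ZFP57 was called at 3.18% of the 472 KAP1 peaks of 300 bp (1.79 to 5.19%), 7.88% of the 520 of 450 bp (5.72 to 10.5%) and 22.7% of the 238 of 600 bp (17.5 to 28.5%). It was called at 49.1% of the 53 KAP1 peaks of 750 bp (35.1 to 63.2%) and 47.1% of the 51 that were wider. Of peaks of at least 600 bp, 103 of 175 for ZFP57 had KAP1 (58.9%, 51.2 to 66.2%), and 104 of 342 for KAP1 had ZFP57 (30.4%, 25.6 to 35.6%). KAP1 peaks without ZFP57 were thus the larger class even among the wide ones.

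**Figure D3:**
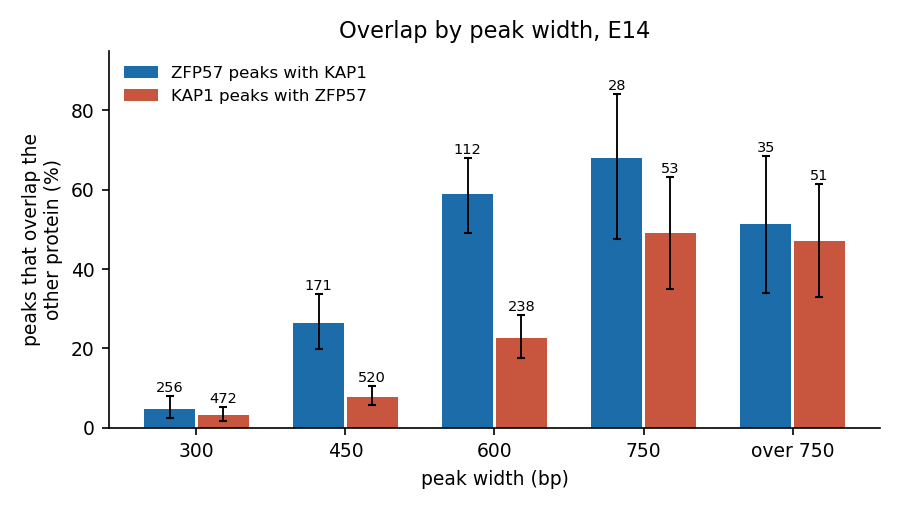
Share of peaks that overlapped a peak of the other protein (y axis, %) by the peak's own width (x axis, bp), for ZFP57 and KAP1, with 95% exact intervals as bars and the number of peaks above them. ZFP57 rises from 4.69% at 300 bp to 67.9% at 750 bp, and KAP1 from 3.18% to 49.1%.

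ZFP57 peaks without KAP1 seldom had KAP1 close by. Of these 442 peaks, 1 touched a KAP1 peak without sharing a base, 6 including that one had KAP1 within 1 kb (1.36%, 0.500 to 2.93%) and 17 within 10 kb (3.85%, 2.26 to 6.09%). KAP1 was within 100 kb of 77 of them (17.4%) and within 1 Mb of 274 (62.0%), and the nearest KAP1 peak of the other 168 lay farther away. The median distance, from edge to edge, was 658 kb (550 to 775 kb). Few ZFP57 peaks of the list therefore lay within 10 kb of KAP1 without meeting it. How far apart the peaks would lie from the sparseness of the KAP1 list alone was not tested. Around all ZFP57 peaks, KAP1 midpoints were denser at 1 to 10 kb than at 100 kb to 1 Mb (3.05 against 0.746 per 1000 peaks and kb).

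The distance was shorter for wide peaks. It had a median of 772 kb for the 244 ZFP57 peaks of 300 bp without KAP1 (628 to 910 kb), 605 kb for the 126 of 450 bp (400 to 983 kb) and 259 kb for the 72 of 600 bp or more (147 to 655 kb). The first and last of these intervals overlapped slightly. KAP1 peaks without ZFP57 lay at a median of 1475.4 kb from the nearest ZFP57 peak (1333.8 to 1614.8 kb, n = 1174). They had fewer ZFP57 peaks to be near to than the reverse, since the ZFP57 list is the shorter, so the medians of the 2 directions are not comparable.

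**Figure D4:**
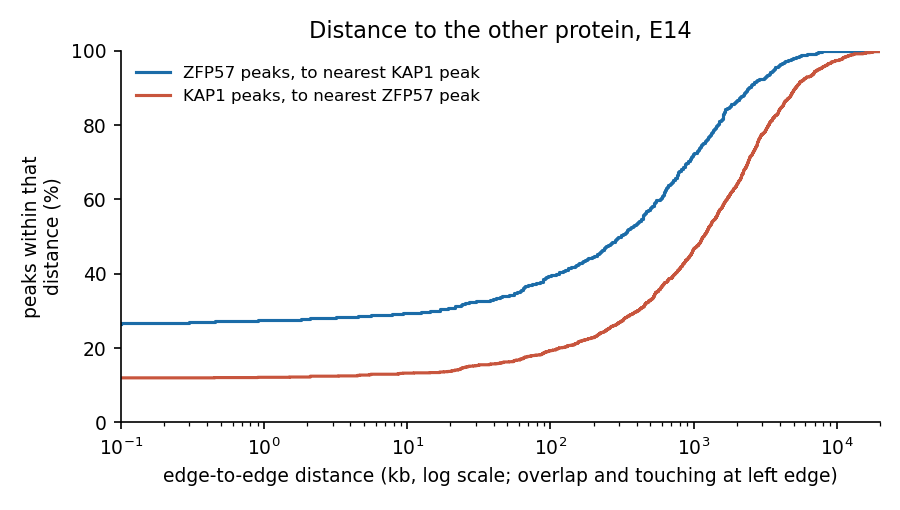
Cumulative share of peaks (y axis, %) that had a peak of the other protein within a given edge-to-edge distance (x axis, kb, log scale), for 602 ZFP57 and 1334 KAP1 peaks, with overlaps and the touching pair at the left edge. The curves start at about the overlapping shares, 26.6% and 12.0%, stay nearly flat to 10 kb, and rise mostly between 100 kb and several Mb.

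The 6 ZFP57 peaks within 1 kb of KAP1 that did not overlap it lay on 5 chromosomes. The ZFP57 peak that touched KAP1 was on chromosome 8 at 87200701 to 87201000, next to a KAP1 peak at 87199801 to 87200700. Chromosome 2 had ZFP57 peaks at 98502151 to 98503350 and 98504851 to 98505600, at 0.300 kb and 0.450 kb on either side of a KAP1 peak at 98503651 to 98504400 that itself coincided with another ZFP57 peak. Another ZFP57 peak, at 98506201 to 98507700, lay 1.80 kb from the same KAP1 peak. On chromosome X, ZFP57 at 120336601 to 120337200 was 0.450 kb from KAP1 at 120335551 to 120336150. The remaining distances were 0.750 kb on chromosome 9, for ZFP57 at 3034501 to 3038400, and 900 bp on chromosome 3, for ZFP57 at 134827201 to 134827650. As the lists hold no read counts, whether the E14 input was also high at any of these positions was not tested.

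Of the 17 ZFP57 peaks within 10 kb of KAP1, 7 had a nearest KAP1 peak that carried ZFP57 itself (41.2%, 18.4 to 67.1%). This was so for 11.7% of the 60 peaks at 10 to 100 kb (4.82 to 22.6%) and 17.8% of the 197 at 100 kb to 1 Mb (12.7 to 23.8%). Beyond 1 Mb it was so for 32 of the 168 peaks, so the share did not fall steadily with distance. Of the whole KAP1 list, 12.0% of peaks carried ZFP57. Among the 7, the chromosome 2 peaks starting at 98502151, 98504851 and 98506201 had the same nearest KAP1 peak. Those starting at 3011101 and 3034501 on chromosome 9 lay close together. The interval for the 17 treats such peaks as independent and is thus too narrow. The ZFP57 peaks farthest from KAP1 were on chromosome 1 at 129628651 to 129628950 and 127472401 to 127472700, at 10.1 Mb and 7.90 Mb. The next were on chromosome 16 at 48425401 to 48425700, 7.38 Mb away, on chromosome 15 at 59746051 to 59746500, 7.37 Mb away, and on chromosome 10 at 4059151 to 4059750, 7.15 Mb away. None of these 5 was wider than 600 bp.

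The longest stretches called for both proteins were on chromosomes 1 and 9. Whether the E14 input was also high at them was not tested, since the lists hold no read counts. On chromosome 1 both lists called 87479251 to 87498150, a stretch of 18900 bp with the same boundaries. On chromosome 9, ZFP57 at 3021901 to 3030600 lay within KAP1 at 3021901 to 3033750, and their midpoints were 1575 bp apart, the largest offset of any pair. The third, on chromosome 9 at 2999851 to 3003300, had the same boundaries in both lists. The A3 ZFP57 list also called these 3, and the A3 KAP1 list called only the third. Without peaks over 1500 bp KAP1 met 26.0% of the ZFP57 peaks, so these regions bear on the amount of common sequence and hardly on the share of peaks.

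The next pairs were of 1 to 2 kb. ZFP57 at 134754301 to 134755800 on chromosome 7 ended 1 window before its KAP1 peak, and ZFP57 at 157385251 to 157386450 on chromosome 2 began 1 window after its KAP1 peak. Boundaries were the same for both proteins over 1050 bp on chromosome 11 (22871851 to 22872900), chromosome 15 (72639901 to 72640950) and chromosome X (73843651 to 73844700). The A3 lists called the chromosome 15 locus for both proteins, the chromosome 11 locus for KAP1 alone and the chromosome X locus for neither. On chromosome 10, KAP1 at 12810301 to 12811350 began 1 window after ZFP57 at 12810151 to 12811350. On chromosome 6, KAP1 at 149310601 to 149311650 covered the end of a longer ZFP57 peak at 149310001 to 149311650, a locus that both A3 lists called. These loci were ranked by the length of the overlap, and so by width.

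Loci of 900 bp with identical boundaries lay on chromosome 4 (154346401 to 154347300), chromosome 6 (58856551 to 58857450), chromosome 17 (6949201 to 6950100) and chromosome 18 (74520001 to 74520900). Of these, the loci on chromosomes 4 and 18 were called in both A3 lists and the other 2 in neither. A further pair of loci on chromosome 17 overlapped by 900 bp: ZFP57 at 6253201 to 6254100 lay inside KAP1 from 6253051, and ZFP57 at 6492901 to 6493950 was shifted by 1 window against KAP1 at 6493051 to 6494100. Of the pairs that overlapped by 750 bp, those named by the fixed order had identical boundaries and lay on chromosome 2 (98503651 to 98504400 and 174121201 to 174121950) and on chromosome 3 (95848351 to 95849100). The second of these was called for both proteins in A3, and the first in neither A3 list.

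Pairs with midpoints over 150 bp apart were few, 11 of 161 (6.83%, 3.46 to 11.9%). After the chromosome 9 pair, the largest offsets were those of the 1800 bp ZFP57 peak on chromosome 5, whose KAP1 peaks at 130162651 to 130163400 and 130163551 to 130164450 lay at its ends, 525 bp and 450 bp from its midpoint. The gap between these KAP1 peaks was 1 window wide. On chromosome 6, KAP1 at 30687301 to 30688800 reached 750 bp past the end of ZFP57 at 30687151 to 30688050, an offset of 450 bp. On chromosome 10 the narrow ZFP57 peak at 79202701 to 79203000 lay 375 bp from the middle of its KAP1 peak. The 5 pairs named here for their offset were thus at loci with several peaks or with a peak of at least 1500 bp.

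Loci with both proteins were found on each of the 21 chromosomes, and 16 chromosomes held at least 6. Their median width, from the outermost boundaries, was 600 bp, and 129 of the 159 were 450 to 750 bp wide (81.1%). Neighbouring loci were a median of 7.80 Mb apart, and 26 of the 138 gaps between neighbours on a chromosome were of at most 1 Mb.

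Chromosome 7 stood highest in the share of ZFP57 peaks with KAP1, at 20 of 34 peaks (58.8%, 40.7 to 75.4%). Chromosome 1 stood lowest, at 4 of 43 (9.30%, 2.59 to 22.1%). These were the 2 chromosomes of 21 whose interval did not include the share of the whole list, 26.6%, and the intervals were not adjusted for looking at 21 chromosomes. Among peaks of at least 450 bp the shares were 19 of 25 on chromosome 7 (76%, 54.9 to 90.6%) and 3 of 21 on chromosome 1 (14.3%, 3.05 to 36.3%), against 148 of 346 in the list (42.8%, 37.5 to 48.2%). On chromosome X 10 of 23 ZFP57 peaks had KAP1 (43.5%), on chromosome 12 11 of 27 (40.7%) and on chromosome 17 11 of 29 (37.9%), with intervals that included 26.6%.

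**Figure D5:**
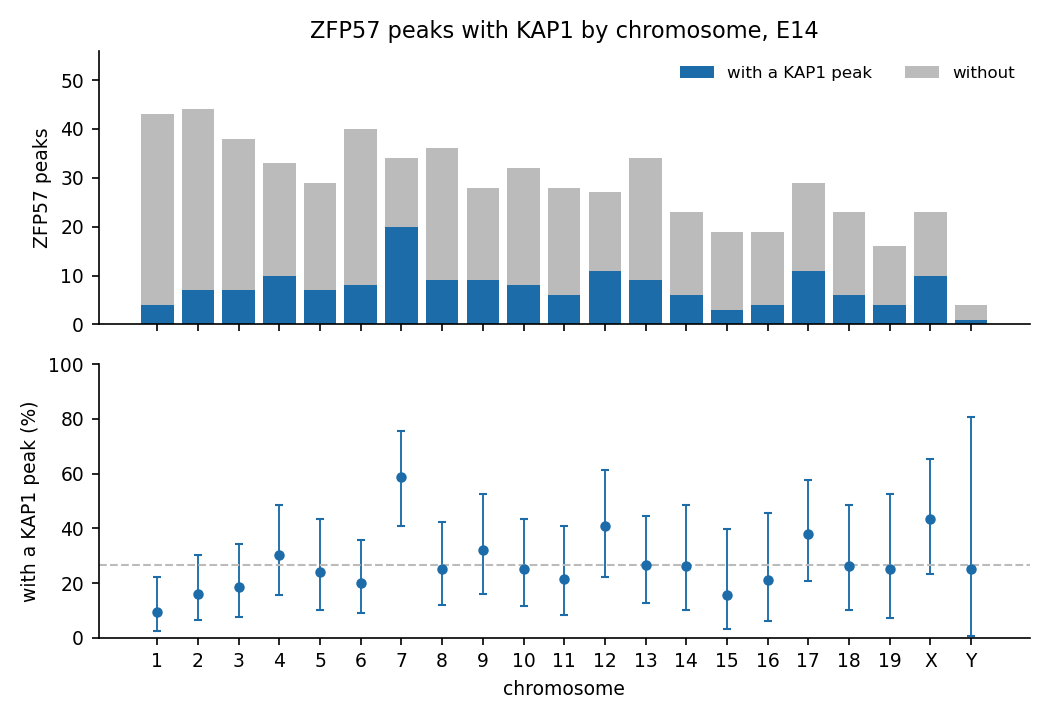
Top, number of ZFP57 peaks with and without a KAP1 peak (y axis) on each chromosome (x axis). Bottom, percentage of ZFP57 peaks that met KAP1 (y axis) with 95% exact intervals, and that of the whole list, 26.6%, as a dashed line. Chromosome 7 is highest at 58.8% and chromosome 1 lowest at 9.30%.

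Many imprinted genes lie on chromosome 7, among them Peg3, a paternally expressed zinc finger gene, Snrpn, a splicing factor gene, H19, a noncoding RNA gene, Kcnq1ot1, a long antisense RNA gene, and Inpp5f, a phosphatase gene. Only the chromosome of a gene could be used, from a RefSeq table of the assembly GRCm38.p6, and no peak was assigned to a gene. A list of 22 imprinted genes, all of which were matched in that table, spread over 11 chromosomes. Those chromosomes held 95 of the 159 loci with both proteins (59.7%) and 360 of the 602 ZFP57 peaks (59.8%). By chromosome alone these shares were alike, although chromosome 7, with 5 of the 22 genes, held the most loci. A locus at a gene counts here the same as a locus anywhere else on its chromosome. The shares therefore cannot show whether loci with both proteins lie at imprinted genes, and nothing is concluded about that.

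The 20 loci of chromosome 7 ran from one end to the other. Between its start and 20 Mb they began at 4303951, 6084151, 6681751, 13896601, 16850251 and 19344151. In the middle of the chromosome they began at 48882001, 57769051, 67149301, 103465801, 110246251 and 112767151. Beyond these, 3 lay between 134754301 and 135832200, at starts of 134754301, 135011101 and 135831151, and others began at 140504701 and 141196501. The last 3 began at 149765851, 149767501 and 150481351. The A3 lists called both proteins at 6 of these loci, those starting at 6681751, 67149301, 112767151, 134754301, 135831151 and 150481351, and neither protein at 10.

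Groups of at least 3 loci with gaps of at most 1 Mb were found on chromosomes 7, 12, 17 and X. The largest held 6 loci within 700 kb of chromosome 17, from 6253051 to 6953250, and each ZFP57 and KAP1 peak in that interval belonged to a locus with both proteins. Within it, 3 loci starting at 6943351, 6949201 and 6952501 lay in 9.90 kb. On chromosome X, 3 loci lay in 46.5 kb from 122649601 to 122696100, again without any other peak of either protein. A second group on chromosome X, from 120523201 to 121094850, differed, since its 3 loci were among 7 ZFP57 and 8 KAP1 peaks. Chromosome 7 had the groups named above, and in the second of them 2 loci, starting at 149765851 and 149767501, lay within 2.40 kb. The chromosome 12 group ran from 3109651 to 4437450 and held 3 loci.

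The widest ZFP57 peaks without KAP1 had KAP1 near them. The widest, on chromosome 1 (85266301 to 85282950), was 18 kb from a KAP1 peak. A pair of peaks on chromosome 4 (145038301 to 145044600 and 146017351 to 146021550) was 5.55 kb and 9.30 kb from KAP1, and a pair on chromosome 9 (3034501 to 3038400 and 3011101 to 3013500) was 0.750 kb and 7.80 kb from it. All 5 were therefore well inside the median distance of 658 kb. The widest KAP1 peaks without ZFP57 lay on both sides of the median of their own direction, 1475.4 kb. Those on chromosome 8 (19764601 to 19773300 and 19996651 to 20001750) were 4240.1 kb and 4011.6 kb from ZFP57, and that on chromosome 5 (146514451 to 146518050) was 1167.8 kb away. The others, on chromosome 18 (7320751 to 7323750) and chromosome 1 (85175401 to 85178850), were 422 kb and 87.5 kb away. Neither A3 list called any of these 5 KAP1 peaks.

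The A3 lists gave a readout that the choice of E14 peaks had not used. They were of unlike length, with 1485 peaks for ZFP57 (0.713 Mb) and 10295 for KAP1 (6.09 Mb). Counts of E14 peaks met by the A3 ZFP57 list and by the A3 KAP1 list are therefore not comparable with each other. Of the 160 E14 ZFP57 peaks with KAP1, 38 met a peak in both A3 lists (23.8%, 17.4 to 31.1%), 13 in the A3 ZFP57 list alone, 42 in the A3 KAP1 list alone and 67 in neither (41.9%, 34.1 to 49.9%). Of the 442 without KAP1, 5 met an A3 ZFP57 peak (1.13%, 0.368 to 2.62%) and 16 an A3 KAP1 peak (3.62%, 2.08 to 5.81%). The other 421 met neither list (95.2%, 92.8 to 97.0%). None of the 442 met both A3 lists, and a count of 0 in 442 is compatible with up to 0.679% by a limit of 3 counts of the total and 0.831% by the exact interval. The ZFP57 peaks that E14 called without KAP1 were thus seldom called in A3, whether for KAP1 or for ZFP57 itself.

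Recurrence in the A3 ZFP57 list was also counted within each width. Among E14 ZFP57 peaks of 600 bp, 23 of 66 with KAP1 were called again for ZFP57 in A3 (34.8%, 23.5 to 47.6%), against 2 of 46 without KAP1 (4.35%, 0.531 to 14.8%). At 450 bp the counts were 8 of 45 (17.8%, 8.00 to 32.1%) and 1 of 126 (0.794%, 0.0201 to 4.34%). The intervals did not overlap at these 2 of the 5 widths. Above 750 bp they were 10 of 18 (55.6%, 30.8 to 78.5%) and 2 of 17 (11.8%, 1.46 to 36.4%), with intervals that overlapped slightly. At 750 bp 10 of 19 with KAP1 and 0 of 9 without were called again, where 0 of 9 allows up to 33.3% by the limit of 3 counts and 33.6% by the exact interval, and the intervals overlapped. At 300 bp the A3 ZFP57 list called 0 of 12 with KAP1 and 0 of 244 without, which allow up to 25% and 1.23% by the limit of 3 counts and 26.5% and 1.50% by the exact interval.

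For KAP1 the order was the reverse at some widths. Over all widths, 81 of the 160 E14 KAP1 peaks with ZFP57 were called again for KAP1 in A3 (50.6%, 42.6 to 58.6%), and 533 of the 1174 without ZFP57 (45.4%, 42.5 to 48.3%). At 450 bp the counts were 13 of 41 with ZFP57 (31.7%, 18.1 to 48.1%) and 261 of 479 without (54.5%, 49.9 to 59.0%), and the intervals did not overlap. At 600 bp they were 29 of 54 (53.7%, 39.6 to 67.4%) and 135 of 184 (73.4%, 66.4 to 79.6%), with intervals that overlapped slightly. Above 750 bp the order turned again, with 15 of 24 (62.5%, 40.6 to 81.2%) and 7 of 27 (25.9%, 11.1 to 46.3%), and these intervals also overlapped slightly. At 300 bp they were 5 of 15 (33.3%, 11.8 to 61.6%) and 112 of 457 (24.5%, 20.6 to 28.7%), and at 750 bp 19 of 26 (73.1%) and 18 of 27 (66.7%). The peaks with ZFP57 were the wider class, so the sums over all widths compare lists of unlike width.

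The way in which a pair overlapped bore no clear relation to its recurrence. The A3 ZFP57 list called 28 of the 82 pairs with identical boundaries (34.1%, 24.0 to 45.4%), 16 of the 40 with ZFP57 inside KAP1 (40%, 24.9 to 56.7%), 7 of the 30 with KAP1 inside ZFP57 (23.3%, 9.93 to 42.3%) and 1 of the 9 staggered pairs. In the A3 KAP1 list the counts were 38, 23, 16 and 5 in the same order, or 46.3%, 57.5%, 53.3% and 55.6%. The intervals of the 4 shapes overlapped in each list, so no difference could be seen at these numbers of pairs.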

How the data were processed

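The deposited files are peak lists, 1 per library, that the authors made; they hold chromosome, start and end, with no score or read count. Per the submitters' processing notes, the tools were bedtools 2.14.3-1, SAMtools 0.1.18, Bowtie 0.12.7 and CASAVA 1.8.2, with build mm9. For the peak caller, its threshold and any input control nothing is given in the sources used here, and library depth is unknown. All starts lay 1 above, and all ends on, a multiple of 150 bp. Here 1 was subtracted from each start and overlapping or touching peaks were merged, which removed 1 ZFP57 and 3 KAP1 peaks. Overlap needed at least 1 bp, and distances run from edge to edge. Planned analyses of gene context, motif and base composition were not run, since a genome of build mm9 was not used here, and no sequence is printed. The members, lists and comparisons were chosen with earlier results of these data known. Peaks were named by fixed rules: the 20 longest overlaps, the 5 largest midpoint offsets, the 5 widest peaks of each protein alone, the 5 nearest and 5 farthest ZFP57 peaks without KAP1, and groups of at least 3 loci. The chromosome 7 starts, and the chromosome 2 peak at 1.80 kb, were added after their values were seen. Alternatives were 3 other overlap rules, wider peaks only, no very wide peaks, autosomes, and 2 other ways of merging. Overlaps and distances were tested on simulated data against bedtools 2.31.1. The code ran in Python 3.11.15 with matplotlib 3.10.9, scipy 1.17.1, pandas 2.3.3 and numpy 2.4.6.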

Additional observations from a re-analysis of the deposited data

How the results depend on the processing

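Of the 80 values that the 10 main measures took under 8 alternatives, 75 stayed within the counting interval of the reported value or, for the number of loci, within 1.5 times it. All 5 that did not came from keeping only peaks of at least 450 bp on both sides: ZFP57 peaks with KAP1 rose to 39.9%, KAP1 peaks with ZFP57 to 16.1%, the median width of ZFP57 peaks without KAP1 to 450 bp, their median distance to KAP1 to 781 kb and their share with KAP1 within 10 kb to 7.21%. The first and second went with removing narrow peaks, which seldom overlapped. The third could not be under 450 bp once narrower peaks were removed. For the others the cause was not tested, and the cut also left only 862 of the 1334 KAP1 peaks to be near to. The share of midpoints within 150 bp ranged from 89.8% (peaks within 1 kb counted as shared) to 95.5%, and the number of loci from 138 to 161. No paired analysis was possible because each group has 1 library. The lists hold no score, so a stricter threshold could be tried only through width, and library depth, the use of the input and variation between cultures limit all values in a way these files do not show.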
